A study of Mus musculus with 4 samples.

Results

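The members are the mouse genes of the Pax, Lhx, sine oculis (as Six4), Dlx, Irx, Msx, Emx, Gsx, Pitx and Nkx families, the developmental homeobox and paired box genes that lie outside the Hox clusters. The rule takes genes by symbol, as one of these family names followed by a number, and 60 of the 24026 genes in the table met the rule. Of these, 59 are protein-coding and 1, Nkx2-2os, is an RNA on the strand opposite Nkx2-2. Expression was measured by RNAseq of polyadenylated RNA in 4 libraries of untreated F123-ESCs, a male hybrid mouse embryonic stem cell line with the genotype S129/CAST, which carries a genome from each strain. The line was grown on feeder fibroblasts with LIF and passaged without feeders before harvest. All libraries belong to this line and condition, so the comparison that the design holds is between the S129 and the CAST allele within each library. In this line the S129 chromosomes are maternal and the CAST chromosomes paternal. Strain and parent of origin therefore cannot be told apart in any allele difference given here.

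Homeobox genes encode transcription factors that bind DNA through a homeodomain, and Pax proteins bind through a paired domain that several of them combine with a homeodomain. In the embryo these genes are switched on in restricted territories and fix the identity of neurons, muscle, placodes, limb, gut and other organs. Many of them lie in small clusters of related genes, and in embryonic stem cells most are known to be kept off, or nearly off, by Polycomb proteins at CpG-rich promoters.

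The values are RPKM, reads scaled by gene length and by the total of reads, given for each allele, and a level is the mean of both alleles. Whole reads recovered from the steps of the RPKM gave 34120417 to 56627974 allele-assigned reads per library. Only reads that cover a base differing between the strains can be assigned to an allele, so a level depends on how many such bases a transcript holds, and a gene listed at 0 may lack them; this was not tested here. All 8 pluripotency markers were high (summed 1470 to 1759 RPKM per library). Of 10 feeder fibroblast markers, 7 reached 1 RPKM (summed 182 to 229 RPKM, with Twist1 at 0), and of 8 neural progenitor markers 1 did (summed 18.3 to 23.2 RPKM, with Neurod1 and Olig2 at 0). Single genes made most of these sums. Col1a2 had 166 ± 17.5 RPKM, with Postn the next feeder marker at 15.4 ± 2.24 RPKM, and Tubb3 had 20.0 ± 1.93 RPKM. At least 1 RPKM was also found for 4 of 7 primitive endoderm, 1 of 8 mesoderm and 3 of 6 trophoblast markers. The part of feeder or differentiating cells in the members' levels was not tested. In these bulk samples fewer cells of a type and less RNA per cell cannot be told apart, and the labels do not say whether the libraries came from separate cultures, so p-values measure the spread between these libraries, which may be technical.

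Most of the 60 genes were close to silent. Their median level was 0.0771 RPKM, against 0.975 RPKM over all genes and 1.68 RPKM over all protein-coding genes. In replicates 1 to 4 the members' median was 0.0589, 0.0910, 0.0709 and 0.0691 RPKM (0.0725 ± 0.0134, SD, n = 4). A level of at least 1 RPKM was reached by 8 members (13.3%), whereas 49.7% of all genes and 54.8% of protein-coding genes reached it. Another 17 members lay between 0.1 and 1 RPKM, 27 were above 0 but under 0.1 RPKM, and 8 were listed at 0 in every column. Being listed at 0 was no more frequent among members (13.3%) than among all genes (15.7%). At the other end of the scale, 58.3% of members were under 0.1 RPKM, against 27.7% of protein-coding genes. Over all libraries the members took 22024 reads, of which 83.5% fell on the 8 members at 1 RPKM or more.

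The families differed in how many members passed 1 RPKM. The 9 Pax genes, regulators of eye, kidney, muscle, thyroid and B cell development, held none, with a median of 0.0406 RPKM. None of the 8 Lhx genes, LIM-homeodomain factors of neuron identity, passed either (median 0.0536 RPKM), and none of the 6 Dlx genes of the branchial arches and forebrain (median 0.0459 RPKM). In the Irx family 1 of 6 passed, in the Msx family 1 of 3, and in the Nkx family 3 of 15. Both Emx genes, factors of the cerebral cortex, were listed at 0, and the 2 Gsx genes, which pattern the ventral forebrain, had 0.127 and 0.0464 RPKM. Members listed at 0 were Emx1, Emx2, Lhx3, Lhx8, Nkx2-1, Nkx2-2os, Nkx3-2 and Pitx1.

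**Figure D1:**
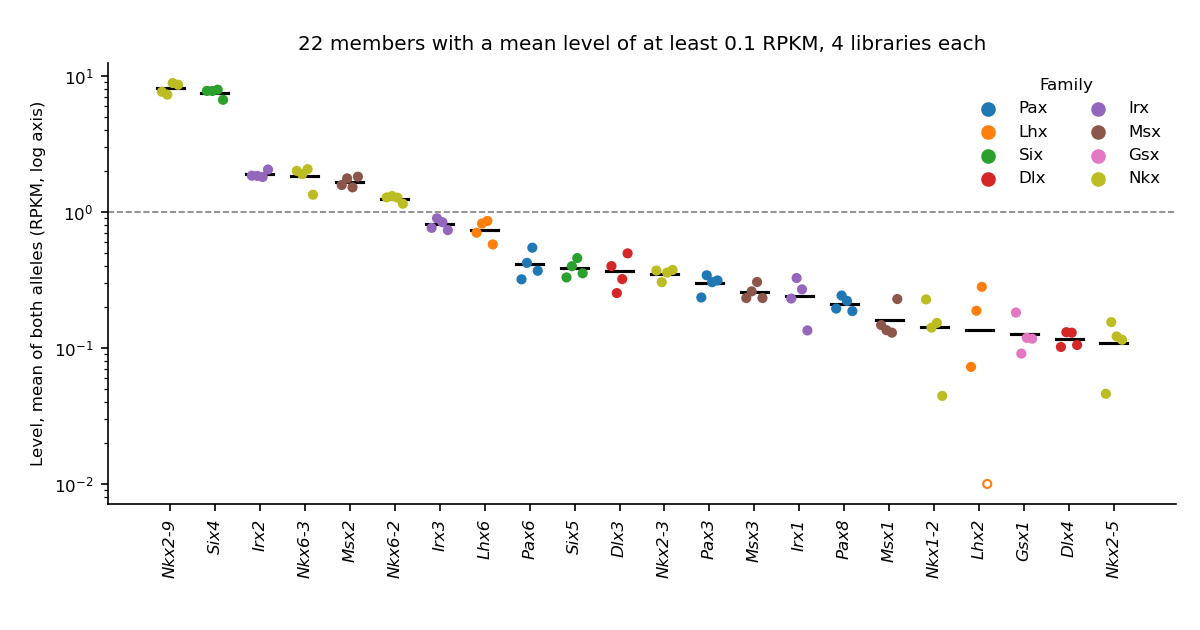
Level in RPKM (log axis) of 22 members with a mean of at least 0.1 RPKM, with 1 point per library, a black bar for the mean over 4 libraries and a dashed line at 1 RPKM. The open point of Lhx2 is a library listed at 0, drawn at 0.01 RPKM. Nkx2-9 and Six4 lie at 6.63 to 8.81 RPKM in every library, above the other members drawn.

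Nkx2-9, an Nkx2 gene of the ventral neural tube (chr12:56611389-56613284), was among the highest. It had 7.60, 7.24, 8.81 and 8.56 RPKM (8.05 ± 0.752, SD, n = 4). The genes on either side of it are also members, and neither shared its level. Nkx2-1, which specifies lung, thyroid and ventral forebrain, starts 79.4 kb away and was listed at 0. Pax9, a gene of tooth, palate and thymus development 80.4 kb to the other side, had 0.0809 ± 0.0219 RPKM, so Nkx2-9 was 99.5 times higher.

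Six4 encodes a sine oculis factor that acts with Eya proteins in muscle, placodes and kidney. Six4 (chr12:73099609-73113456) had 7.71, 7.71, 7.87 and 6.63 RPKM (7.48 ± 0.570, SD, n = 4), with replicate 4 the lowest. Six6, an eye and pituitary gene at a gap of 155 kb, had 0.0234 ± 0.00989 RPKM, so Six4 was 320 times higher. This ratio is uncertain, since Six6 rests on 17 reads over all libraries and alleles. It also uses a Six4 length of 6402 bases, and would be smaller with the merged exons given below. The annotated gene 4930447C04Rik runs over the start of Six6 on the opposite strand, and whether counting used strand is not given in the sources used here, so reads of this pair cannot be told apart.

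Levels of genes with several transcripts depended on the length used. The recovered lengths equalled the first listed transcript for 51 members, and for Six4 this was 6402 bases, against 10855 bases of merged exons. With the merged exons Six4 came to 4.41 RPKM, while Nkx2-9, with 1264 bases by either measure, stayed at 8.05 RPKM. Pax6, the eye and forebrain regulator, fell from 0.413 RPKM with 2601 bases to 0.0918 RPKM with 11694 bases. The count of members at 1 RPKM or more was 8 with either length.

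A further 4 members above 1 RPKM had less. Irx2, an Iroquois gene of limb and neural patterning (chr13:72628820-72634198), had 1.84, 1.83, 1.80 and 2.04 RPKM (1.88 ± 0.111, SD, n = 4). Its cluster neighbours were lower, with 0.240 ± 0.0805 RPKM for Irx1 and 0.0532 ± 0.0387 RPKM for Irx4. Nkx6-3, a gene of the stomach and hindbrain (chr8:23153269-23158948), had 1.99, 1.89, 2.05 and 1.33 RPKM (1.82 ± 0.330, SD, n = 4), with replicate 4 the lowest. Msx2, a BMP-responsive gene of skull, tooth and limb (chr13:53466884-53473074), had 1.57, 1.76, 1.51 and 1.81 RPKM (1.66 ± 0.144, SD, n = 4). Nkx6-2, which acts in ventral neural progenitors and in glia (chr7:139579376-139582797), had 1.27, 1.30, 1.27 and 1.14 RPKM (1.25 ± 0.0705, SD, n = 4). Msx3, a dorsal neural tube gene whose gap to Nkx6-2 is 463 kb, had 0.257 ± 0.0342 RPKM.

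Among these 6, the ranges over libraries of Nkx2-9 and Six4 overlapped, as did those of Irx2, Nkx6-3 and Msx2 between neighbours. Six4 and Irx2 did not overlap, and neither did Msx2 and Nkx6-2. Under 1 RPKM stood Irx3 with 0.806 ± 0.0738 RPKM, Lhx6, a gene of cortical interneurons, with 0.737 ± 0.127 RPKM, Pax6 with 0.413 ± 0.0968 RPKM, and Six5 with 0.384 ± 0.0560 RPKM. Irx3 and its neighbour Irx5, which rests on 22 reads over all libraries and alleles, differed 17.7-fold.

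By the distance between lower coordinates, 28 of 60 members (46.7%) had another member within 1000 kb. The count takes in pairs of different families and Nkx2-2 with Nkx2-2os, and the share for other sets of genes was not computed. The members lay on 14 chromosomes, with 11 on chromosome 2 and none on X. The study calls chromosomes 12, 16, 18 and 19, which carry rRNA genes, rDNA-chromosomes. They held 10 members (16.7%, against 11.7% of protein-coding genes), of which 6 were on chromosome 12 and 4 on chromosome 19.

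Promoter sequences of 43 protein-coding members were found by symbol in RefSeq (GRCm38.p6), and the 250 bases before the first listed start were read. Members held a median of 16 CpG dinucleotides in this window, against 11 over 16135 protein-coding genes and 2 over the protein-coding genes under 0.1 RPKM. Protein-coding genes at 1 RPKM or more also had a median of 16. The 5 members at 1 RPKM or more had a median of 16, the 20 members above 0 and under 0.1 RPKM had 16.5 and the 6 members listed at 0 had 16. Single windows listed at 0 varied, and that of Nkx2-1 held 9. An observed over expected CpG ratio of at least 0.6 was found in 30 of 43 members (69.8%), against 47.3% of all promoters and 11.8% of those of protein-coding genes under 0.1 RPKM. For protein-coding genes at 1 RPKM or more it was 68.8%, close to the members' share. By level, such a ratio was found in 4 of 5 members at 1 RPKM or more, 9 of 12 from 0.1 to 1 RPKM, 14 of 20 above 0 and under 0.1 RPKM, and 3 of 6 listed at 0. The letters TATAAA, on either strand, were in 3 of 43 (6.98%), against 11.99% of all and 5.96% of protein-coding genes at 1 RPKM or more. The promoters of 4 members are shown, with CpG in capitals: the neighbours Nkx2-9 and Nkx2-1, which were at 8.05 and 0 RPKM, and Irx2 and Nkx6-2, whose windows had 19 and 26 CpG. They are written in the direction of the gene, and the coordinates are GRCm38.p6. None overlaps an exon of GENCODE M21, and the Nkx2-1 window lies in an intron of Gm26973 on the opposite strand.
Nkx2-9 (chr12:56613285-56613534, minus strand): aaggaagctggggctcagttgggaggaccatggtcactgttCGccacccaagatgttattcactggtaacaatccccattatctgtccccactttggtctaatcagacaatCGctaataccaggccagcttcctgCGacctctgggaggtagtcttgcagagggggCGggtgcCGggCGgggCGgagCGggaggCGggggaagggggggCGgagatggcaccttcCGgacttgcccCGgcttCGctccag
Nkx2-1 (chr12:56536909-56537158, minus strand): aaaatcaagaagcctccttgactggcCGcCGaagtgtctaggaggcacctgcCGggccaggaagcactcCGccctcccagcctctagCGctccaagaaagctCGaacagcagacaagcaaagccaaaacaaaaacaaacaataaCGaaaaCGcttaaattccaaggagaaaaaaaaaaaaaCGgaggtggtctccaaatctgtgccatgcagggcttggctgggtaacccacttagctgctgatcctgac
Irx2 (chr13:72628570-72628819, plus strand): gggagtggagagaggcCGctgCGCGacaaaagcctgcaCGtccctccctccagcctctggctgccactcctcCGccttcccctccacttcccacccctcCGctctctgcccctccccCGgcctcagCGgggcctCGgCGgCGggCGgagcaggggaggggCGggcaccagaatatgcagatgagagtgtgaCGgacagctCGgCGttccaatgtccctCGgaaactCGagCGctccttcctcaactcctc
Nkx6-2 (chr7:139582798-139583047, minus strand): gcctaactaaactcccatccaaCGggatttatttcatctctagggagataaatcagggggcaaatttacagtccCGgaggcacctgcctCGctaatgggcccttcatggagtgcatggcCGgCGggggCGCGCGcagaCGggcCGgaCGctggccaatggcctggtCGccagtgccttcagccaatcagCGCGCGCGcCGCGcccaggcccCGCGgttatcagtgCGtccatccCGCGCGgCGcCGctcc

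The Nkx2-9 window held 13 CpG at a ratio of 0.558 and the Nkx2-1 window 9 CpG at a ratio of 0.564. A level at 0 and a level of 8.05 RPKM thus stood beside nearly the same ratio in this pair. The ratio was 0.666 for Irx2 and 0.982 for Nkx6-2.

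**Figure D2:**
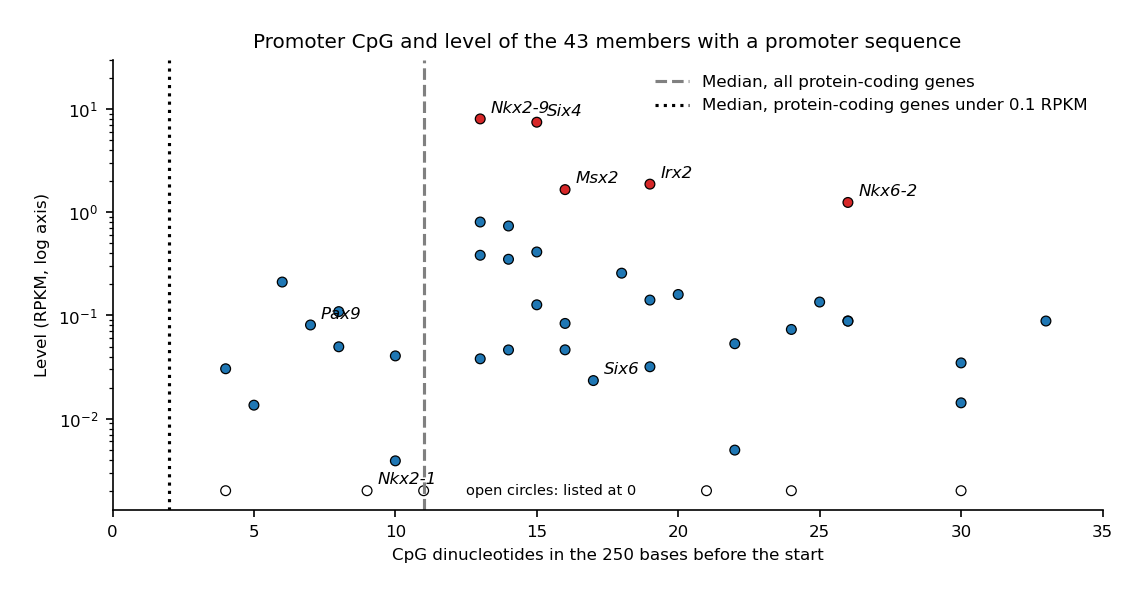
Level in RPKM (log axis) against the number of CpG dinucleotides in the 250 bases before the start, for 43 members. Red points are members at 1 RPKM or more, blue points lower members and open points members listed at 0, drawn at 0.002 RPKM; vertical lines mark the medians of all protein-coding genes (11) and of those under 0.1 RPKM (2). Red points lie to the right of 11, and blue and open points lie on both sides of it.

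The alleles were compared by limma on the within-library difference of log2(RPKM + 0.1), over the 13341 genes whose S129 and CAST means added up to at least 1 RPKM. Of the 60 members 11 could be tested, and 49 were too low. Higher on S129 were 5 of the 11, where 31.4% of all genes tested were, and higher on CAST were 3, where 31.3% of all genes tested were. In all, 72.7% of the members tested differed between the alleles, against 62.7% of all genes tested. With looser filters the order turned: with the sum at 0.1 RPKM or more 38.2% of 34 members differed, against 51.6% of all genes, and with no filter 30.8% of 52 members did, against 42.7%. The median size of the log2 difference was 0.48 for the members and 0.31 for all genes tested. These medians were not matched for level, and the part of counting error in them was not tested. When the columns were rescaled to one autosomal sum, the median over all genes moved by 0.10 on the log2 scale, the calls over all genes split into 5121 higher on S129 and 3072 higher on CAST in place of 4187 and 4182, and the members split into 5 and 2.

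Values by allele follow for 8 of the 11, of which 4 were higher on S129 and 2 on CAST. Of the 8 feeder fibroblast markers tested in the same way, 6 were higher on S129 and 2 on CAST, where 31.4% and 31.3% of all genes tested were. The part of feeder cells in the members' differences was not tested. Six4 had 10.3, 9.94, 9.96 and 8.85 RPKM on S129 and 5.14, 5.48, 5.79 and 4.42 RPKM on CAST. The alleles did not overlap, and S129 was higher in 4 of 4 libraries (log2 difference 0.90, SE 0.05, limma adjusted p = 0.000264). In reads, 66.0% of 9207 were from S129 (95% Clopper-Pearson interval 65.0 to 67.0%, counting error only). Read shares, here and below, are not scaled for the column totals, which were larger on S129 in every library. In replicate 1 the totals were 28772350 reads on S129 and 27855624 on CAST. With whole reads in place of RPKM, the median log2 difference over all genes moved by 0.055 towards S129. Of 9 tested genes nearby, 5 were called higher on S129, as Six4 was, and 3 on CAST. On S129, 4930447C04Rik had a log2 difference of 1.87, Ppm1a 0.39, Mnat1 0.18, Trmt5 0.38 and Pcnx4 0.42. On CAST, Slc38a6 had -0.50, Dhrs7 -1.45 and Prkch -1.13. The median of the 71 other tested genes within 5 Mb was -0.08.

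**Figure D3:**
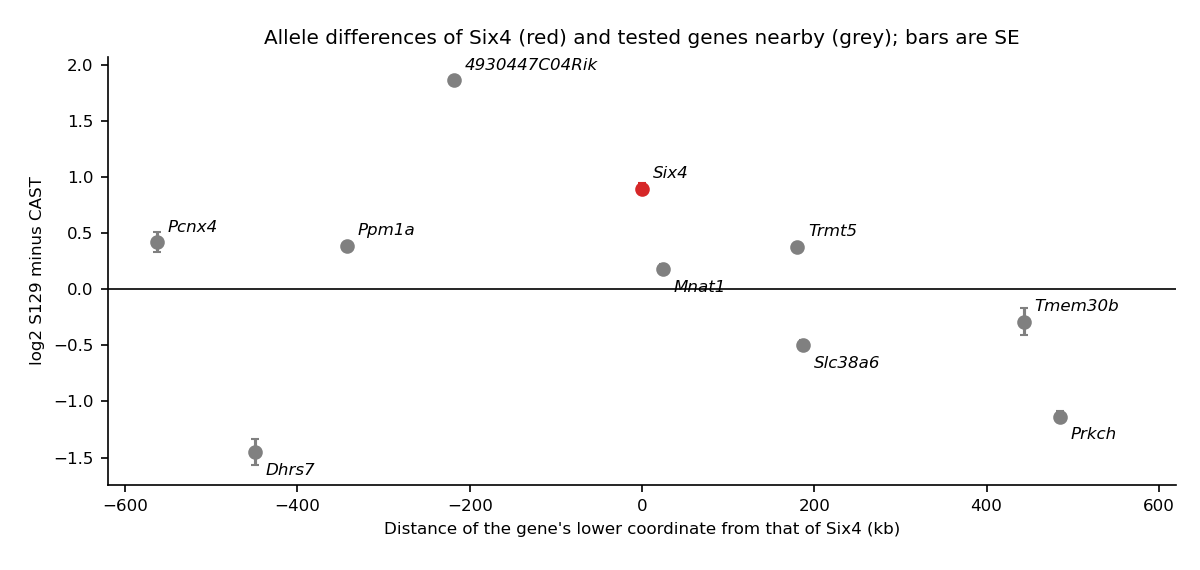
The log2 difference S129 minus CAST of Six4 (red) and of tested genes nearby (grey) against the distance in kb of each gene's lower coordinate from that of Six4, with bars for the SE of 4 libraries. Six4 at 0.90 lies above Mnat1 at 0.18 and below 4930447C04Rik at 1.87, and genes on both sides are below 0.

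Nkx6-3 was also higher on S129. It had 2.59, 2.61, 2.86 and 2.16 RPKM on S129 and 1.40, 1.16, 1.25 and 0.508 RPKM on CAST. The groups did not overlap (log2 difference 1.24, SE 0.19, limma adjusted p = 0.00510), and the CAST value of replicate 4, which rests on 19 reads, was the lowest. The 10 tested genes nearest to it ranged from -0.56 for Polb to 0.35 for Plat, with 2 called higher on S129 and 3 on CAST, and the median of the 60 other tested genes within 5 Mb was -0.21.

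Msx2 had 1.98, 2.27, 2.24 and 2.25 RPKM on S129 and 1.16, 1.24, 0.776 and 1.37 RPKM on CAST. All S129 values were above all CAST values (log2 difference 0.91, SE 0.14, limma adjusted p = 0.00586). The 10 tested genes nearest to Msx2 ranged from -0.53 for Ror2 to 0.71 for 4833439L19Rik, with 2 called higher on S129 and 3 on CAST, and the median of the 78 within 5 Mb was -0.08. Irx2 had 2.13, 2.26, 2.09 and 2.17 RPKM on S129 and 1.55, 1.41, 1.50 and 1.91 RPKM on CAST. The alleles of Irx2 were closest in replicate 4 (log2 difference 0.43, SE 0.09, limma adjusted p = 0.0122), and without replicate 1 or 3 the adjusted p was 0.05001 and 0.0510, just above the threshold of 0.05.

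Irx3 had 0.599, 0.761, 0.749 and 0.638 RPKM on S129 and 0.922, 1.03, 0.924 and 0.825 RPKM on CAST. The groups did not overlap (log2 difference -0.38, SE 0.06, limma adjusted p = 0.00484), but chromosome 8 had a median of -0.25, and with it taken out the difference was -0.13 (adjusted p = 0.105). The gene Irx3os overlaps Irx3 on the other strand. Nkx6-2 had 1.00, 1.31, 1.00 and 0.814 RPKM on S129 and 1.54, 1.30, 1.53 and 1.47 RPKM on CAST. Its alleles were level in replicate 2 and lower on S129 in the other 3 (log2 difference -0.48, SE 0.14, limma adjusted p = 0.0411), and without replicate 1, 3 or 4 the adjusted p was 0.128, 0.126 and 0.111. The end of Nkx6-2 overlaps Inpp5a on the other strand. Inpp5a was itself called higher on CAST (log2 difference -0.42, limma adjusted p = 0.0498), and whether its reads enter the Nkx6-2 values was not tested. Of the 10 tested genes nearest to Nkx6-2, 3 were called higher on S129 and 4 on CAST.

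No difference was called for Nkx2-9, with 8.12 ± 0.969 RPKM on S129 and 7.98 ± 0.954 RPKM on CAST (SD, n = 4; log2 difference 0.03, SE 0.09, limma adjusted p = 0.831). Lhx6 was at 0.818 ± 0.131 and 0.656 ± 0.252 RPKM (log2 difference 0.33, SE 0.24, limma adjusted p = 0.285), with S129 higher in 3 of 4 libraries, and without replicate 2 it was called (log2 difference 0.60, adjusted p = 0.0361).

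**Figure D4:**
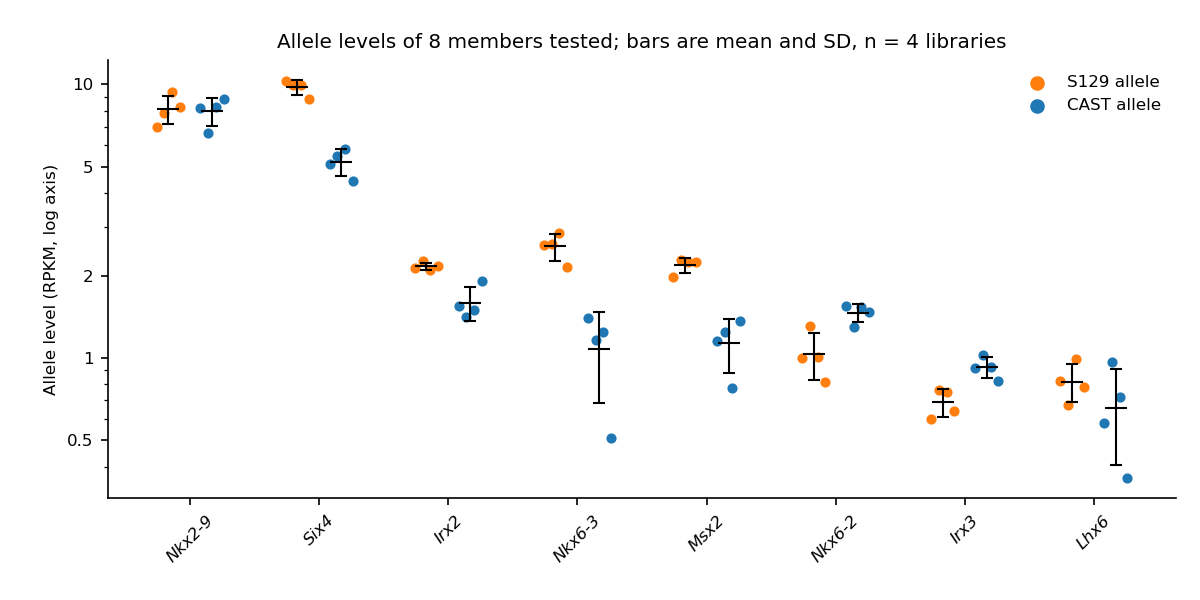
Allele levels in RPKM (log axis) of 8 of the members tested, with S129 in orange and CAST in blue, 1 point per library, and bars for the mean and SD of 4 libraries. The alleles of Six4, Irx2, Nkx6-3 and Msx2 do not overlap, with S129 above CAST, nor do those of Irx3, with CAST above S129, and those of Nkx2-9 lie over each other.

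Another 41 members were above 0 but too low to test, with 2 to 218 reads over all libraries and alleles (median 31), and 22 of them were listed at 0 in at least 1 column. In 7 of the 41 (17.1%) S129 was above CAST in all 4 libraries, against 14.0% of the 6902 genes above 0 and too low to test, and in 6 (14.6%) CAST was above S129, against 11.7%. Msx3, which shares a cluster with Nkx6-2, had 85 reads from S129 and 31 from CAST, a share of 73.3% from S129 (95% Clopper-Pearson interval 64.3 to 81.1%). Irx1, beside Irx2, had 75 and 37 reads, a share of 67.0% (57.4 to 75.6%). Other members in a cluster with a higher one did not all lean to S129. Pax9, beside Nkx2-9, had 22 and 42 reads, a share of 34.4% (22.9 to 47.3%). Irx5, beside Irx3, had 5 and 17 reads, Irx4, beside Irx2, had 11 and 15, and Six6, beside Six4, had 10 and 7. Pax8, a thyroid and kidney gene, Gsx1, Nkx2-5 and Six2 were picked after their values were seen. Pax8 had 29 and 73 reads, a share of 28.4% (19.9 to 38.2%), and Gsx1 had 8 and 35 reads, a share of 18.6% (8.39 to 33.4%). On the other side, Nkx2-5 had 24 and 7 reads, a share of 77.4% (58.9 to 90.4%). Six2 had 28 and 9 reads, a share of 75.7% (58.8 to 88.2%).

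Of 31 genes whose proteins work with these factors, 21 had at least 1 RPKM, with a median of 2.69 RPKM. Of the 22 tested 5 were higher on S129 and 8 on CAST, where 31.4% and 31.3% of all genes tested were. Partners of the Lhx proteins were high for Ssbp3 (89.8 ± 7.002 RPKM) and Ssbp4 (40.3 ± 2.04 RPKM), although no Lhx gene reached 1 RPKM. Ldb1, the LIM-domain adaptor of the same list, had 34.9 ± 6.12 RPKM and was higher on S129, at 54.9 ± 8.94 against 15.0 ± 3.57 RPKM (log2 difference 1.88, SE 0.08, limma adjusted p = 0.000107).

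Of the partners of sine oculis proteins, the phosphatases Eya3 and Eya1 were highest, with 13.3 ± 0.970 and 1.47 ± 0.0523 RPKM. Both were higher on CAST (log2 difference -0.24 and -0.44, limma adjusted p = 0.00604 and 0.0160), as were 31.3% of all genes tested. Among the TALE cofactors, which bind DNA together with other homeodomain proteins, 8 of 9 reached 1 RPKM, led by Pknox1 (15.0 ± 0.857 RPKM) and Meis3 (7.86 ± 0.669 RPKM). The Groucho corepressors Tle3 and Tle1 had 12.2 ± 1.11 and 7.92 ± 0.292 RPKM. The Pax-interacting adaptor Paxip1 had 3.99 ± 0.483 RPKM, and Pagr1a, listed with it, had 76.0 ± 1.64 RPKM.

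Of 31 other homeobox genes outside the rule, 8 reached 1 RPKM, with a median of 0.343 RPKM. Of the 11 tested 4 were higher on S129 and 5 on CAST, where 31.4% and 31.3% of all genes tested were. The highest were the TGF-beta corepressors Tgif1 and Tgif2, at 32.4 ± 2.49 and 27.1 ± 3.17 RPKM. Differences of at least 1 on the log2 scale were found for Hesx1, a gene of the anterior neural plate and pituitary (log2 difference -1.32, limma adjusted p = 0.000120, with 11.1 ± 1.26 RPKM on S129 and 28.0 ± 3.41 RPKM on CAST), and for the mesenchymal gene Prrx1 (log2 difference 1.09, limma adjusted p = 0.000419, with 1.87 ± 0.0783 and 0.832 ± 0.129 RPKM).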

How the data were processed

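RNA of 4 untreated F123-ESC libraries was measured with a stranded polyA kit. The authors filtered rRNA reads with SortMeRNA, trimmed with Trimmomatic (version 0.40, per the submitters' processing notes), aligned with STAR to an N-masked mm10 genome, split reads by SNPsplit into S129 and CAST, and deposited RPKM per gene and allele. The deposited table also holds the authors' mean RPKM per allele and log10 of that mean plus 1, which were not used. The counting program and annotation are not given in the sources used here.

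Coordinates and transcript lengths came from GENCODE M21, in which 24003 of the 24026 Ensembl identifiers were found. Totals and lengths behind the RPKM were recovered as whole reads (within 0.02 reads) for 99.5% of the 20243 genes above 0, which gave 16716721 to 28772350 reads per allele column; these totals may be off by a few reads. Intervals (95%) cover counting error only.

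Alleles were compared with limma 3.58.1 (R 4.3.3) on within-library differences of log2(RPKM + 0.1), which understates changes of low genes, in all genes with S129 plus CAST of at least 1 RPKM, with Benjamini-Hochberg adjustment over all of them. Both alleles of a library are reads of that library. Their deviations from the allele means correlated by 0.105 to 0.195 across the genes tested. Between S129 and CAST columns of different libraries the range was -0.155 to 0.140, so the ranges overlapped. The fit and the recovery were checked on simulated data. Alternatives were other pseudocounts and filters, rescaled columns, whole reads, centring by chromosome, no pairing, a variance trend, left-out libraries and other lengths and thresholds. Values of 3 members are not reported here, although the counts include them. The members and lists were chosen with earlier results of these data known. Members at 1 RPKM or more were named with values in every library, and lower members when they were among the 5 next highest, called between alleles or in a cluster with a higher member. Partner and other homeobox genes were named when their log2 difference was 1 or more in size, or when among the highest 2 of a list.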

Additional observations from a re-analysis of the deposited data

Results flagged for a closer look

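The 4 libraries of each of 19 quantities (levels of 10 members, allele differences of 8 and the members' median) were examined for 1 library standing apart from the others by Dixon's criterion, which chance exceeds in about 1 of 20 groups. It was exceeded by 2. The level of Six4 was 6.63 RPKM in replicate 4, against 7.71 to 7.87 RPKM in the others. The level of Irx2 was 2.04 RPKM in replicate 4, against 1.80 to 1.84 RPKM in the others. Replicate 4 was the shallowest library, and the part of depth was not tested.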

How the results depend on the processing

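Of 267 values under alternatives, 227 kept their direction, their call and their size within the limits set. Of 112 allele differences of members, 98 did. Members called higher on S129 were 8 with a filter of 0.1 RPKM and 10 with no filter, where 34 and 52 members were tested in place of 11; members called higher on CAST were then 5 and 6, so that a smaller share of members was called than of all genes (38.2 against 51.6% and 30.8 against 42.7%), where the main share was larger (72.7 against 62.7%). With the chromosome median taken out 1 member was called higher on CAST, and likewise 1 with the median within 5 Mb taken out, an alternative added after the data were seen. With 1 library left out, 4 to 6 members were called higher on S129 and 2 to 3 on CAST, and the difference of Nkx2-9, called in none of them, ranged from -0.047 to 0.11. Nkx6-2 lost its call with rescaled columns (adjusted p = 0.0713), whole reads (0.0617) and the looser filters (0.0560 and 0.0640). Without the pairing of alleles by library (no replicate block) the members' counts stayed at 5 and 3, and the calls over all genes were 3292 and 3133. A threshold of 2 RPKM left 4 members. The members' median was 0.0618 RPKM on the S129 allele alone and 0.0621 RPKM with merged exon lengths. The cause of these changes was not tested, other than the number of genes that a filter or threshold admits. Depth limits the low members: 3 reads in a library come to 0.0265 to 0.0440 RPKM at 2000 bases.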
